A study of Mus musculus with 3 samples.

Results

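Accessible chromatin was described at 10 genes of the erythropoietin receptor, JAK2 and STAT5 pathway in MEL cells, a mouse erythroleukemia line that models early red cell precursors. The genes were given by name: Epor, Jak2, Lyn, Stat5a, Stat5b, Cish, Socs1, Socs2, Socs3 and Pim1. They are 10 of 21851 protein-coding genes in the annotation. Peaks were counted as theirs when the peak centre lay within 1000 bp of a protein-coding start, inside the gene, or within 50 kb on either side. This gave 484 of 281048 peaks in biological replicate 1 and 178 of 88879 peaks in biological replicate 2.

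Erythropoietin binds a receptor on red cell precursors that has no kinase of its own. The receptor carries the tyrosine kinase JAK2, which phosphorylates the receptor tail and the transcription factors STAT5A and STAT5B. Phosphorylated STAT5 dimers enter the nucleus and bind an inverted repeat, TTCNNNGAA. The SOCS family genes and Cish are among their targets and their products damp the same signal, so the pathway limits itself. In erythroid cells the pathway is known for survival and expansion of precursors.

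DNase I cuts DNA where chromatin is open, and a peak marks a stretch with many cuts. The study had 3 libraries of 1 condition, MEL cells, with no treatment, genotype, sex or age given in the labels. Biological replicate 1 was made of 2 technical libraries merged into 1 peak list, and biological replicate 2 of 1 library with its own list. The line is a single immortalized line, and both biosamples come from it. Each peak carries a score, a whole number from 1 to 150 deposited by the authors, whose meaning is not given in the sources used here. Scores were ranked within a list only; they run lower in replicate 2 over the whole list, with a median of 32 against 73, so a pair of scores is no comparison of the replicates. With 1 list per replicate and 1 condition no test between samples was possible, and no p-value is given. How deeply each library was sequenced is unknown. Of 10 erythroid marker genes, 10 carried a promoter peak in replicate 1 and 9 in replicate 2, with Alas2 at a score of 85 in replicate 1 alone. Of 8 B and T lymphoid markers, 3 had one in replicate 1 and 0 in replicate 2, while 6 of 8 myeloid and 4 of 6 megakaryocyte markers had one in both lists. Some markers of other cell types also had one, with 3 of 4 fibroblast, 2 of 4 hepatocyte and 2 of 4 neuron markers in replicate 1. In replicate 2 these counts were 2, 1 and 1. Over all protein-coding genes the share with a promoter peak was 58.3% in replicate 1, 49.4% in replicate 2 and 49.4% in both.

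Every one of the 10 genes had a promoter peak in both lists. In the background, 58.3% of protein-coding genes had a promoter peak in replicate 1, 49.4% in replicate 2 and 49.4% in both. Among genes with a promoter peak, the highest promoter score had a median of 142.5 over the pathway genes and 139 over all genes in replicate 1. In replicate 2 the medians were 69.5 and 63. The pathway genes ranged from 117 to 149 in replicate 1 and from 28 to 106 in replicate 2. Epor and Jak2 stood at the top of that range in both lists and Stat5b at the bottom. The place of Epor rests on a peak over 500 bp from its start. Within 500 bp of a start its highest scores were 141 and 59, lower than those of 6 and 5 of the other genes and beside all-gene medians of 139 and 63 at that width. Jak2 was then highest, at 148 and 83, and Stat5b lowest.

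**Figure D1:**
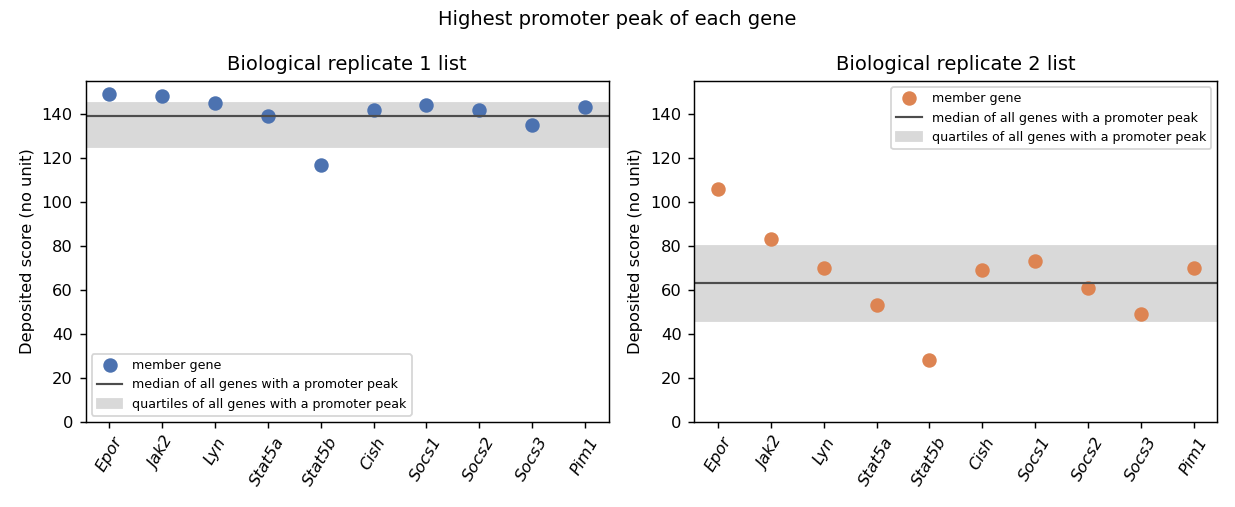
Highest promoter score (deposited score, no unit) of each gene, with replicate 1 on the left and replicate 2 on the right; points are the 10 genes, and the line and grey band give the median and quartiles of all genes with a promoter peak. Epor and Jak2 lie above the band in both panels and Stat5b, at 117 and 28, lies below it.

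Epor encodes the receptor and has 1 annotated start. Its promoter window held peaks scoring 149, 141 and 126 in replicate 1, and 106 and 59 in replicate 2. The highest of them was not the one at the start. It lay in the first part of the gene, in an intron, 856 bp downstream of the start in replicate 1 and 916 bp downstream in replicate 2, and these 2 intervals are offset by 60 bp. The peak nearest to the start scored 141 and 59, with centres 124 and 144 bp upstream. Among genes with a promoter peak, the Epor score stood at percentile 96.9 in replicate 1 and 97.3 in replicate 2.

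The intronic Epor peak is shown because it is the highest site of the receptor gene. In replicate 2 it spans 150 bp of mm10, plus strand, chr9:21962516-21962665. It holds 14 CG dinucleotides, in capitals, 66.0% of its bases are G or C, and none of the STAT, GATA, KLF or SP words spelled out below was found in it. The replicate 1 interval, shifted toward the start, held 1 SP word.
Epor intronic peak: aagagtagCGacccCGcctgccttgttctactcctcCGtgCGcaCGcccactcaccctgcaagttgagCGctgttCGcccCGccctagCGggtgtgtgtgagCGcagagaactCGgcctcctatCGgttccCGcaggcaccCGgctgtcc
The sequence upstream of the RefSeq start, RefSeq build GRCm38.p6, minus strand, chr9:21963577-21963826, is shown because it covers most of the bases under the peak at the start. Its capitals mark a match to a GATA word read on the opposite strand, beginning 54 bases before the RefSeq start. The 300-base window around that start also held 1 KLF and 1 SP word. GATA words were found in 29.8% of 32851 RefSeq promoter windows, KLF words in 13.0% and the SP word in 11.4%.
Epor upstream sequence: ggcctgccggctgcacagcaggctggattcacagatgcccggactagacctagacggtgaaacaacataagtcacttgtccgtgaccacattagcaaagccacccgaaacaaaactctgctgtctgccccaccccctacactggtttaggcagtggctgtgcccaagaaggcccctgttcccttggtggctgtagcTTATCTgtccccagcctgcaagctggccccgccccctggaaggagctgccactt
Inside the gene outside the promoter window, the highest peak scored 130 and 33 and lay in a coding exon, 1.66 kb from the start in replicate 1 and 1.72 kb in replicate 2. Other strong peaks in the Epor window lay at the starts of other genes or inside them. The highest in replicate 2 scored 123 at the shared promoter of Ccdc151 and Prkcsh, 39.3 kb upstream, and the next scored 112 at the start of Swsap1. Away from any promoter, the highest peak scored 148 and 101, lay in an intron of Tmem205, 39.3 kb downstream of the Epor start, and held an NF-E2 word. Of 47 peaks in the replicate 1 window 19 were overlapped by a replicate 2 peak. This is 40.4% (Wilson interval 27.6 to 54.7%), against 30.2% over the list, which lies inside the interval.

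Jak2 encodes the kinase bound to the receptor. It had the highest number of replicate 2 peaks of the 10 genes, 45, and its 84 replicate 1 peaks equalled those of Lyn. Per 100 kb this was 52.1 peaks in replicate 1 and 27.9 in replicate 2, at percentiles 95.6 and 99.6 of all protein-coding genes. The promoter window held 5 peaks scoring 131 to 148 in replicate 1 and 4 peaks scoring 55 to 83 in replicate 2. The highest of them sat at the second annotated start, within 31 bp, and scored 148 and 83. Near the first start, 613 bp away, the nearest peak scored 142 and 64.

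The highest scores around Jak2 were upstream of the gene. A peak between genes, 10.1 kb upstream of the first start (chr19:29241676-29241825 in replicate 2), scored 150 and 131. The next, 23.5 kb upstream, scored 149 and 124, and another, 14.6 kb upstream, scored 149 and 88. Inside the gene but outside the promoter window, the highest peak lay in an intron 18.9 kb from the nearest start, with 145 and 85. Each of these was found in both lists. Downstream, a peak of 150 and 102 lay at the start of Plgrkt.

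Jak2 lies in the 29 to 30 Mb window of chromosome 19, where scores were high in general. Peaks away from promoters in that window had a median of 96.5 in replicate 1, over 314 peaks, and 4 of 2053 windows had a higher median. In replicate 2 the median was 41 over 111 peaks, and 41 of 1298 windows were higher. The medians over all windows were 66 and 29.

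**Figure D2:**
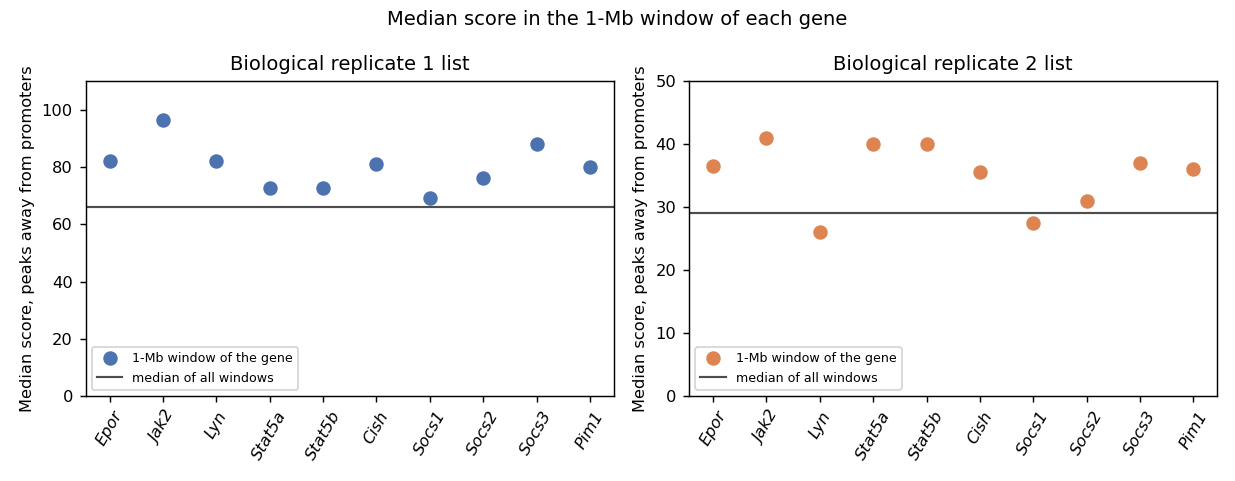
Median deposited score of peaks away from promoters in the 1-Mb window of each gene (points; replicate 1 left, replicate 2 right), with the median over all windows of at least 20 peaks as a line. The Jak2 window is the highest of the 10 in both panels, at 96.5 and 41, and Stat5a and Stat5b share one window.

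Lyn encodes a SRC-family kinase that associates with the receptor. Its promoter peaks scored 145, 141, 101 and 90 in replicate 1 and 70 and 54 in replicate 2. The 2 lists ranked them differently: the peak at the start led in replicate 1 (145), while in replicate 2 the peak 943 bp downstream led (70 against 54 at the start). Inside the gene outside the promoter window, the highest peak lay in an intron 4.92 kb from the start, with 141 and 57. The highest peak of the surroundings, in an intron of the neighbouring gene 2210414B05Rik, lay 18.0 kb upstream in replicate 1 with a score of 150, and 17.9 kb upstream in replicate 2 with 71. It held a composite word of the TAL1-GATA1 type. Of 84 replicate 1 peaks 26 were overlapped in replicate 2, 31.0% (22.1 to 41.5%), against 30.2% over the list. The Lyn window had a median score of 82 in replicate 1, above the 66 of all windows. In replicate 2 it was 26, below the 29 of all windows.

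Stat5a and Stat5b, which encode the 2 STAT5 proteins, are neighbours with starts 8.63 kb apart, and 46 replicate 1 peaks and 16 replicate 2 peaks were counted for more than 1 of the 10 genes. Stat5a has 3 annotated starts. The third had the strongest peak, 54 bp upstream, scoring 139 and 53. At the first start the nearest replicate 1 peak scored 57 and no replicate 2 peak lay within 1000 bp. Stat5b had the lowest promoter score of the 10 genes, 117 and 28, at percentiles 19.9 and 7.94. Its highest peak inside the gene, in an intron 4.28 kb from the second start in replicate 1, scored 136, and 57 in replicate 2. The second Stat5b start had a peak of 76 in replicate 1 and none within 1000 bp in replicate 2. Away from promoters, the strongest peak around both genes lay in an intron of Stat3, scored 143 and 89 and held 2 GATA words.

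The SOCS family genes encode inhibitors of the receptor complex, and each had its promoter open in both lists. Cish had 4 promoter peaks in replicate 1, scoring 94 to 142, and 5 in replicate 2, scoring 22 to 69, of which 3, scoring 22 to 24, share bases with each other. The highest, 142 and 69, had identical coordinates in the 2 lists. Socs1, which binds JAK kinases directly, had promoter peaks of 144, 143 and 124 in replicate 1 and of 73, 67 and 25 in replicate 2. The highest was the peak 974 bp upstream in replicate 1, and the peak 54 bp upstream in replicate 2. Socs2 had 142 and 61 at its highest. Socs3, an inhibitor that binds both receptor and kinase, had 135 and 49, the lowest of the SOCS family genes.

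Around the genes the picture differed. The Cish window held 49 and 27 peaks, 45.9 and 25.3 per 100 kb, at percentiles 92.4 and 99.3. Its strongest peak away from promoters, 149 and 96, lay 15.6 kb upstream in replicate 1 and 15.5 kb upstream in replicate 2, in an intron of Mapkapk3. Socs2 had the fewest replicate 1 peaks, 22, at 16.7 per 100 kb and percentile 40.3. Of the 22, 13 were overlapped in replicate 2, 59.1% (Wilson 95% interval 38.7 to 76.7%), against 30.2% over the list. Among the 13, the peaks 57.3 to 57.4 kb downstream share bases with each other but were counted separately. Socs2 had the highest share of the 10 genes. Its highest peak inside the gene outside the promoter window lay in an intron, with 79 and 20. Socs1 had the fewest replicate 2 peaks, 8. Its highest peak away from promoters, 14.4 kb downstream, scored 116 and 32. Inside their genes but outside the promoter windows, Socs1 and Cish had peaks up to 58 and 108 in replicate 1 and none in replicate 2, and Socs3 had none in either list. The strongest peak of the Socs3 surroundings, 143 and 66, lay in an intron of Pgs1, 22.7 kb upstream.

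Pim1 encodes a serine/threonine kinase that is a known STAT5 target. Its promoter scored 143 and 70. It had 56 peaks in replicate 1 but 9 in replicate 2. Of the 56, 9 were overlapped, 16.1% (8.69 to 27.8%), against 30.2% over the list. Pim1 had the lowest share of the 10 genes. Its replicate 1 density of 53.2 per 100 kb stood at percentile 96.0 and its replicate 2 density of 8.54 at percentile 62.3. The overlapped peaks had a median replicate 1 score of 141, against 77 for the others. Over all replicate 1 peaks these medians were 121 and 58. Inside the gene outside the promoter window, the highest peak, in a coding exon, scored 112 in replicate 1, and replicate 2 had none there. Downstream, 2 peaks between genes were strong in both lists. One lay 4.82 kb from the nearest start in replicate 1 and scored 148 and 82, and the other lay 7.56 kb away and scored 147 and 78.

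**Figure D3:**
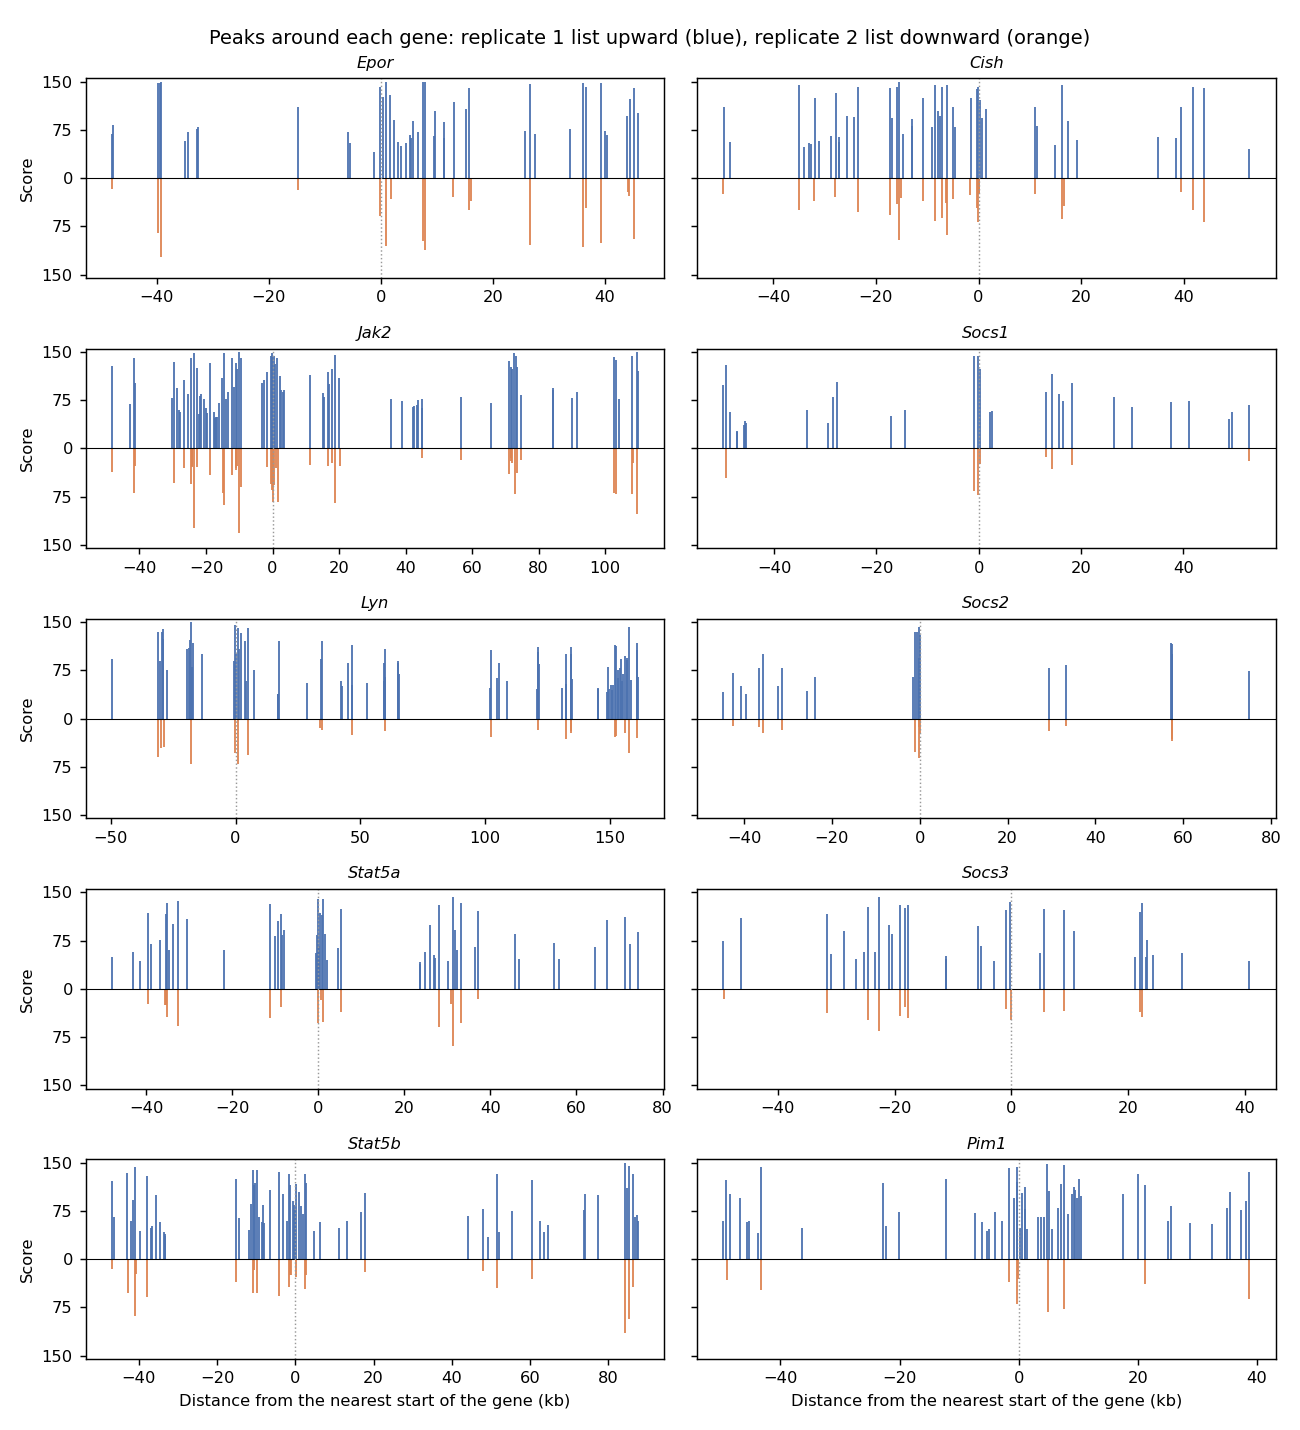
Peaks around each gene by distance from its nearest start (kb, negative is upstream), with line length giving the deposited score, replicate 1 upward in blue and replicate 2 downward in orange. The cluster of lines upstream of Jak2 reaches 150 and 131, and Pim1 shows many replicate 1 lines with few replicate 2 lines under them.

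Over the 10 genes the number of peaks within 50 kb had a median of 52 in replicate 1 and 17.5 in replicate 2, against 28 and 9 over all protein-coding genes. Their density had medians of 41.9 and 12.6 per 100 kb, against 20.6 and 6.78. Most sites were away from promoters: 401 of 484 peaks in replicate 1 and 126 of 178 in replicate 2. That share was lower than over the whole lists, where 246499 of 281048 and 70027 of 88879 peaks were away from promoters. The distal peaks around the genes had a median score of 80 in replicate 1 and 32 in replicate 2. Over all peaks of each list away from promoters the medians were 68 and 29. Of the replicate 2 peaks around the genes, 163 of 178, or 91.6% (86.6 to 94.8%), touched one of replicate 1, against 94.7% over the list. In the other direction it was 168 of 484, or 34.7% (30.6 to 39.1%), against 30.2%. Wilson intervals cover counting error over peaks only.

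**Figure D4:**
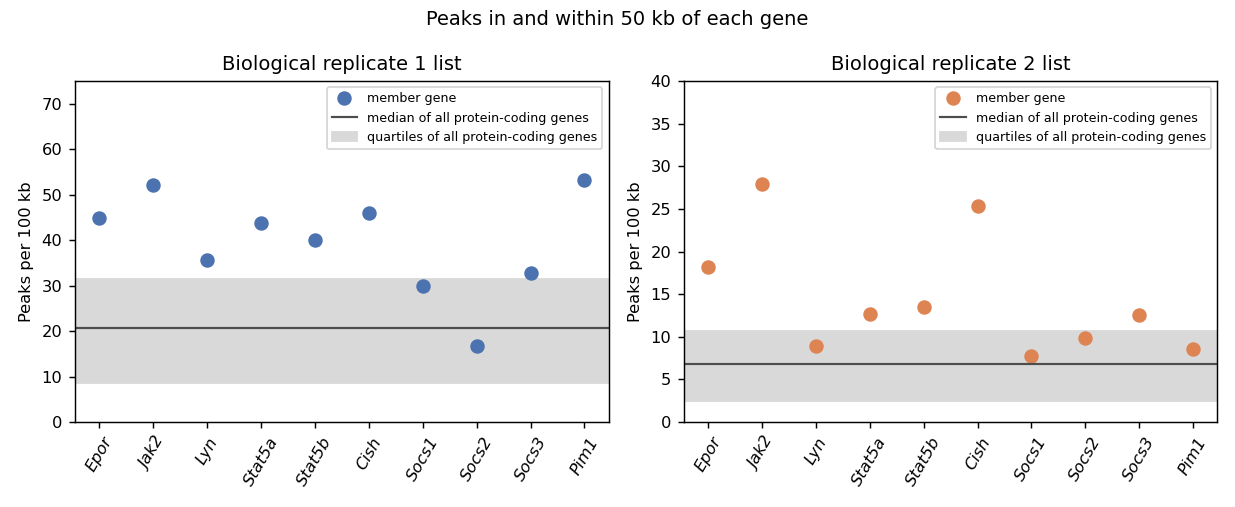
Peaks per 100 kb in and within 50 kb of each gene (points; replicate 1 left, replicate 2 right), with the median and quartiles of all protein-coding genes as a line and grey band. Jak2 and Cish lead in replicate 2 at 27.9 and 25.3, while Pim1 leads in replicate 1 at 53.2 and lies within the band in replicate 2.

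The threshold of 1000 bp placed the Epor peak at 916 bp, the Lyn peak at 943 bp and the Socs1 peak at 974 bp just inside the promoter class. Just outside it was a Jak2 intronic peak at 1009 bp in replicate 2, scoring 30, which overlaps a replicate 1 peak at 869 bp that scored 131 and counted as promoter. Also outside were a Stat5a intronic peak at 1086 bp in replicate 1 and 1106 bp in replicate 2, with 139 and 52, and a Socs2 peak 1173 bp upstream, with 134 and 52.

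The STAT word TTCNNNGAA reads the same on both strands. It was found in 23 of 484 peaks around the genes in replicate 1, 4.75% (3.19 to 7.03%), against 4.52% of all peaks, and in 9 of 178 in replicate 2, 5.06% (2.68 to 9.33%), against 4.37%. The shares around the genes therefore lay within counting error of the whole lists. In all, 26 distinct sites lay under peaks, 25 in replicate 1 peaks and 11 in replicate 2 peaks, with 10 in both. A promoter peak with the word was seen for Jak2, Stat5a and Cish in replicate 1 and for Jak2, Cish and Socs3 in replicate 2. In the background 5.97% of all protein-coding genes had such a promoter peak in replicate 1 and 3.45% in replicate 2, which is 10.2% and 6.97% of the genes with a promoter peak. Counted per peak at any protein-coding promoter, the word was in 3 of 83 around the genes in replicate 1. This is 3.61% (1.24 to 10.1%), against 3.62% of all such peaks. In replicate 2 it was in 3 of 52, 5.77% (1.98 to 15.6%), against 3.63%. Over peaks at any promoter the shares thus also lay within counting error of the lists. These peaks include those at promoters of neighbouring genes. Only 42 of the 83 and 26 of the 52 lay at a promoter of the 10 genes, as did every promoter peak with the word. No share over those alone was set beside the lists. Neither Epor nor Socs2 had any peak with the word, in either list.

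The promoter sites are printed because they place the binding word of the pathway's own factor under open promoters of its components. All are plus strand, mm10, with the STAT word in capitals. The Jak2 and Stat5a stretches are whole peaks, chr19:29252856-29253005 (57 in replicate 2, 144 for the overlapping replicate 1 peak) and chr11:100860836-100860985 (118, replicate 1 only). The Cish and Socs3 stretches are short pieces, chr9:107296654-107296683 and chr11:117969236-117969257, of the peaks that scored 69 and 49 in replicate 2.
Jak2 promoter peak: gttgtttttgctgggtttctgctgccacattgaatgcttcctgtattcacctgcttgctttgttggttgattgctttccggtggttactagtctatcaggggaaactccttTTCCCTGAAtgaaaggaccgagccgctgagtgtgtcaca
Stat5a promoter peak: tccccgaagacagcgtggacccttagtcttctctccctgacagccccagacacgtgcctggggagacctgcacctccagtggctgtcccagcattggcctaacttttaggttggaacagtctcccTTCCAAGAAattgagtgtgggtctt
Cish promoter sites: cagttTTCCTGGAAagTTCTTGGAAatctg
Socs3 promoter site: cgaTTCCTGGAActgcccggcc
Cish was the only one of the 10 genes with 2 words in 1 promoter peak. They lie 47 and 36 bp upstream of the second annotated start, under the peak of 142 and 69. That peak was placed in an untranslated exon of Cish. Counted from the RefSeq start, the words begin at positions 1 and 12, so they are not upstream of it. The Socs3 word lies 57 bp upstream of its annotated start, in a peak placed in a Socs3 intron. The RefSeq promoter window of Socs3 is chr11:117969317-117969616, minus strand. This window holds another STAT word, TTCTTAGAA, beginning 154 bases before the RefSeq start, which lay under no peak of either list. The Socs3 word under the peak, at chr11:117969239-117969247, lies past the downstream end of that window and so downstream of the RefSeq start. It sits at the edge of the replicate 2 peak, and the replicate 1 peak of 135, shifted by 20 bp, starts beyond it.

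Away from promoters, the 4 sites below lay in peaks found in both lists and had the highest replicate 2 scores. They are printed to set the distal copies beside the promoter copies, again plus strand with the word in capitals.
Jak2, chr19:29228236-29228385: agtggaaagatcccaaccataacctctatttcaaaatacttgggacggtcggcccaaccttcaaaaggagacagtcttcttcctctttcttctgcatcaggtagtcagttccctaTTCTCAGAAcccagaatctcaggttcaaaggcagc
Pim1, chr17:29500896-29501045: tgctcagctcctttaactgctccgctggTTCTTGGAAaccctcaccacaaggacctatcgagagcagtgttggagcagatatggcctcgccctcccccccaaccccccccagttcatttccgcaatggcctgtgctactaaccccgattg
Cish, chr9:107312896-107313045: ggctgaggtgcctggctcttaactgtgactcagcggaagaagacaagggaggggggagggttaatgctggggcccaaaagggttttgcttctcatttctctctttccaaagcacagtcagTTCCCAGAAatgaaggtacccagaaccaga
Jak2, chr19:29225056-29225205: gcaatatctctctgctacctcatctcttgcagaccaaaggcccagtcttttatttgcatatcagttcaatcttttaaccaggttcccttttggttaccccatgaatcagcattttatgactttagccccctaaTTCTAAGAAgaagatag
The first is the Jak2 peak 23.5 kb upstream, with 149 and 124. The Pim1 peak, 7.56 kb downstream of the nearest start, scored 147 and 78. The Cish peak, 16.3 kb downstream, scored 145 and 63, and the other Jak2 peak, 26.7 kb upstream, scored 107 and 30. As printed, the Pim1 word and the second word of the Cish promoter have the same letters, as do the Socs3 word and the first Cish word. Read on the opposite strand, the Stat5a word also has the letters of the Pim1 word. Words with these letters were found in peaks around Socs1 as well.

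Other words were searched on both strands. The GATA words were AGATAA and its variants with T as the first base, G as the last base, or both. They were in 28.5% of peaks around the genes in replicate 1 (24.7 to 32.7%), against 30.6% of all peaks, and in 33.1% in replicate 2 (26.7 to 40.4%), against 33.4%. The KLF words CCACACCC and CCCCACCC were in 6.20% against 5.41% in replicate 1 and 8.43% against 6.86% in replicate 2. The ETS word CCGGAAGT was in 1 of 484 peaks in replicate 1, against 0.545% of all peaks, and in 0 of 178 in replicate 2, where the upper Wilson bound is 2.11%, against 1.33%. The PU.1 word GAGGAAGT was in 6.40% against 7.97% in replicate 1 and 7.30% against 9.93% in replicate 2. The NF-E2 word GCTGAGTCA was in 1.45% against 1.06% in replicate 1 and 2.25% against 1.24% in replicate 2. The SP word GGGGCGGGG was in 0.826% against 1.38% in replicate 1 and 2.25% against 3.00% in replicate 2. The TAL1-GATA1 composite, CTG followed after 7 to 9 bases by AGATAA or TGATAA and so overlapping the GATA words, was in 1.86% against 2.47% and in 2.25% against 3.64%. In both lists the share of each of these words over all peaks lay inside the Wilson intervals of the peaks around the genes. Per gene the counts were small: GATA words were in 27 of 84 replicate 1 peaks around Jak2 and in 5 of 47 around Epor.

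**Figure D5:**
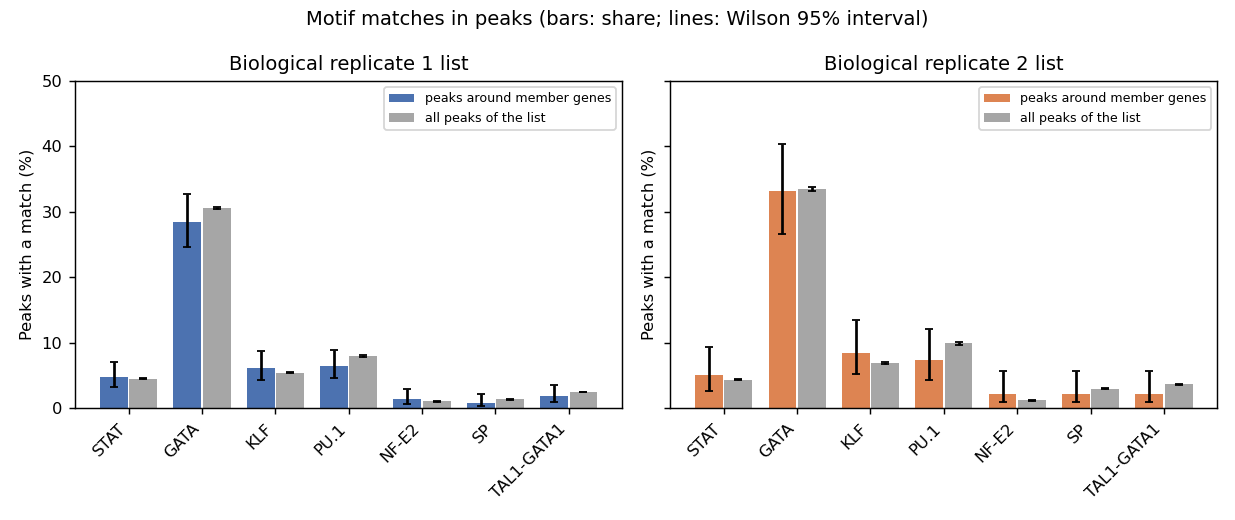
Percent of peaks with a match, for peaks around the 10 genes (coloured) beside all peaks of the list (grey), replicate 1 left and replicate 2 right; lines are Wilson 95% intervals. The STAT bars stand at 4.75% beside 4.52% and at 5.06% beside 4.37%.

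The rest of the pathway was read from 6 lists of 88 genes in all. Of these, 75 had a promoter peak in replicate 1, 85.2%, and 73 in replicate 2, 83.0%, above the 58.3% and 49.4% of all protein-coding genes. All 18 inhibitors had one in both lists, led by Pias3 (149 and 89), Socs5 (145 and 88), Pias4 (144 and 83) and the ubiquitin ligase gene Cbl (150 and 83). Of 8 other JAKs and STATs 7 had one in both, with Tyk2 at 149 and 122, Stat3 at 149 and 92, Stat6 at 145 and 91 and Stat2 at 145 and 86, and Stat4 had none.

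Receptors that use JAK2 or STAT5 were mixed, with 11 of 17 in replicate 1, 64.7%, and 10 of 17 in replicate 2, 58.8%. These shares stand near the 58.3% and 49.4% of all protein-coding genes. The interferon gamma receptor gene Ifngr1 scored 149 and 95, Tfr2, which encodes transferrin receptor 2, 149 and 74, the common beta chain gene Csf2rb 147 and 73, and Ifngr2 143 and 71, tied in replicate 2 with Il5ra at 138 and 71. Kit, the stem cell factor receptor gene, Prlr, Csf2ra, Il2ra and Il2rb lacked one in both lists, and Il2rg had one of 114 in replicate 1 alone. Of 7 ligands 4 had one in both lists, 57.1%, also near the share of all protein-coding genes. Among them were Epo at 137 and 59 and Csf2 at 141 and 59, and Thpo, Il5 and Prl had none.

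Of 22 adaptors and downstream kinases 20 had a promoter peak in replicate 1 and 19 in replicate 2. These are 90.9% and 86.4%, against 58.3% and 49.4% of all protein-coding genes. The adaptor gene Shc1 scored 150 and 127, the kinase gene Akt1 150 and 117, Pik3ca 147 and 92 and the adaptor gene Grb2 144 and 91. Gab1 and Fyn had none. Of 16 genes known as STAT5 or erythropoietin targets 15 had one in both lists, beside 49.4% of all protein-coding genes. They were led by the cyclin gene Ccnd3 (150 and 110), Gadd45g (141 and 89) and the survival gene Mcl1 (146 and 89). Next, tied in replicate 2, came Myc (145 and 86) and Pim3 (148 and 86). Bcl6 had none. A promoter peak shows open chromatin at a start and does not measure transcription.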

How the data were processed

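DNase-seq peaks of MEL cells were read from the lists deposited by the authors, 1 per biological replicate. The deposited score per peak is a whole number of unstated meaning, used to describe, rank and filter within a list. Hotspots, also deposited, come with a −log10 q-value, per their format, and served only as positions in an alternative. Replicate 1 was called on 2 merged libraries, per the deposited notes, and the build is mm10, per the labels. Aligner, caller and read depth: not given in the sources used here. No precision from depth can be stated.

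Exact repeats were dropped (67 lines in replicate 1, 7 in replicate 2) and peaks on chromosomes 1 to 19, X and Y kept. Starts, exons and genes came from GENCODE M21 basic. A peak lay at a promoter when its centre was within 1000 bp of a protein-coding start. Overlap needed 1 bp. Percentiles are among all protein-coding genes, or among genes with a promoter peak for scores, and 1-Mb windows needed 20 peaks. Words were searched in each peak as deposited, and sequence came from GRCm38.p6, the same build as mm10. RefSeq promoters span 250 bases before to 50 after a start, and 8 of the 10 genes matched. Sequence over an exon or an annotated start was printed up to 30 bases only, so the highest Jak2 promoter peak is given by values. Code was tested on simulated data.

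The genes, gene lists and words were chosen with earlier results of these data known. Named were all 10 genes, their highest promoter, gene and flank peaks, genes starting at or containing those peaks, and per pathway list those lacking a peak plus up to 4 with the highest replicate 2 score, ties kept; some genes that the list counts include are not reported here by name. Software was pysam 0.24.0, samtools 1.23.1, pandas 2.3.3, scipy 1.17.1, numpy 2.4.6 and matplotlib 3.10.9 under Python 3.11.15.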

Additional observations from a re-analysis of the deposited data

How the results depend on the processing

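Under the alternatives tried, 24 of 38 values stayed within 1.5 times the reported count or median, or within the interval of the reported share. The number of the 10 genes with a promoter peak stayed at 10 in both lists with windows of 500 and 2500 bp and with hotspots. It was 9 in replicate 2 with the higher-scoring 50% of the list. The window of 2500 bp could only return 10, since a wider window cannot lower the count. Within 500 bp of a start, 11996 of 21851 protein-coding genes had a peak in replicate 1 and 10243 in replicate 2. Under the other alternatives no counts over all genes were taken. Among the pathway genes the number with a promoter peak ranged from 73 to 79 in replicate 1 and from 63 to 75 in replicate 2. The median number of peaks per gene moved with the window: 25.5 and 7.5 within 10 kb, 6.5 and 4 inside the gene only, 33 and 10 with the higher-scoring 50% of each list, and 22.5 for replicate 1 at the length of the replicate 2 list. A narrower window or a shorter list can only lower these counts. Inside the gene the medians over all protein-coding genes were 4 and 1. For the other settings no medians over all genes were taken. The share of replicate 2 peaks around the genes that were overlapped was 86.0% when 50% of the peak had to be covered. It was 98.9% with centres within 500 bp. Under these rules no shares over the whole list were taken. The share of peaks with a STAT word followed the length searched, at 2.48% and 1.69% in 75 bp around the centre, against 2.11% and 2.00% of all peaks, and 10.1% and 12.4% in 300 bp, against 9.14% and 8.85%. When a gap of 4 bases also counted it was 9.30% and 8.99%, against 8.11% and 7.70%. Each biological replicate alone gives the values printed for it. No paired analysis was possible because there is 1 condition and no test. The unknown depth and the merging of 2 libraries limit what the difference in list length means.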
